A study of Mus musculus with 12 samples.

Results

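T cell genes were followed in mouse kidney through 8 transcripts chosen by name: Cd3d, Cd3e, Cd3g, Cd2, Cd4, Cd8a, Il7r and Ptprc. They are 8 of the 23238 gene symbols measured, and each had 1 entry per library. The kidneys came from C57BL/6 mice and formed 3 groups of 4 libraries. These were control animals (Control), animals with chronic kidney disease (CKD), and diseased animals on time restricted feeding (CKD TRF), a schedule that limits meals to certain hours. All groups share strain and tissue, and the labels give no age, sex, means of inducing the disease, feeding hours or source animal for a library, so p-values measure the spread between libraries, which may be technical. Transcripts were read by QuantSeq, which sequences the 3′ ends of polyadenylated RNA and gives about a single fragment per transcript whatever its length.

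T cells recognise peptides held on MHC molecules through the T cell receptor, whose chains need the CD3 proteins to reach the surface and to signal. CD4 and CD8 bind MHC class II and class I beside the receptor and mark helper and cytotoxic T cells, CD2 strengthens the contact with the other cell, and the interleukin 7 receptor gives naive and memory cells a survival signal. CD45, the product of Ptprc, is a phosphatase that opens receptor signalling by acting on the kinase Lck, and all nucleated blood cells carry it. Healthy kidney holds few T cells, while T cells gather between the tubules in many forms of chronic kidney disease. The genes are not equally specific to T cells: Ptprc marks all leukocytes, Il7r is also carried by innate lymphoid cells and early B cells, Cd2 by NK cells, and Cd4 and Cd8a by some dendritic cells.

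On the mouse build GRCm38, of which mm10 is the browser name, the GENCODE M21 annotation places the 3 CD3 genes together at chr9:44969572-44980431 (Cd3g, minus strand), chr9:44981786-44987339 (Cd3d, plus strand) and chr9:44998740-45009627 (Cd3e, minus strand). Cd4 lies at chr6:124864692-124888221 on the minus strand and Cd8a at chr6:71373427-71379173 on the plus strand. Cd2 lies at chr3:101275899-101287939, Il7r at chr15:9505788-9530176 and Ptprc at chr1:138062861-138175708, all on the minus strand. All 8 are protein coding. Cd3e overlaps an antisense gene, Gm48719, and Gm48720, and Ptprc overlaps A130071D04Rik, in each case away from the 3′ end where the fragments are read. The strand setting of the counting is not given in the sources used here.

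RefSeq start sites on GRCm38.p6 were matched for 6 of the 8 genes, with 7 entries. The 250 bases before the start are shown for 4 of them, the 3 neighbouring CD3 genes and Il7r, which had the largest difference of the 8 in CKD against Control. The starts of Cd3d and Cd3g lie 1355 bases apart and point away from each other; Cd3d passed the test in CKD and Cd3g did not. They run 5′ to 3′ on the strand of the gene. Capitals mark matches to an ETS motif (GGAAGT, or ACTTCC on the opposite strand) or a GATA motif (GATAA, or TTATC on the opposite strand). The windows are chr9:44981536-44981785 for Cd3d, chr9:44980432-44980681 for Cd3g, chr9:45009612-45009861 for Cd3e and chr15:9529877-9530126 for Il7r.
Cd3d: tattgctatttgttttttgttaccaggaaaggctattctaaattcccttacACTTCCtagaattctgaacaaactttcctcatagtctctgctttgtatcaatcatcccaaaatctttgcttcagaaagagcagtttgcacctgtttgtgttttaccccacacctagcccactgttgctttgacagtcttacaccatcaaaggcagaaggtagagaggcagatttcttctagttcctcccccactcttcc
Cd3g: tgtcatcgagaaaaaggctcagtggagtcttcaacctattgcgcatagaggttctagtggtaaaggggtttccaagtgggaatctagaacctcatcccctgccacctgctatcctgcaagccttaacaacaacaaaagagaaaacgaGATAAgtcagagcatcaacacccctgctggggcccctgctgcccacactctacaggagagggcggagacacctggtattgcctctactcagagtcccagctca
Cd3e: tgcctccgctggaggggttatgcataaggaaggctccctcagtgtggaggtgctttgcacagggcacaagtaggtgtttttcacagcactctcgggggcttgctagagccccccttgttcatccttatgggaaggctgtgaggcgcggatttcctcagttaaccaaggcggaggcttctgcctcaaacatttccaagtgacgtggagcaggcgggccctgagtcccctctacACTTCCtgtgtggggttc
Il7r: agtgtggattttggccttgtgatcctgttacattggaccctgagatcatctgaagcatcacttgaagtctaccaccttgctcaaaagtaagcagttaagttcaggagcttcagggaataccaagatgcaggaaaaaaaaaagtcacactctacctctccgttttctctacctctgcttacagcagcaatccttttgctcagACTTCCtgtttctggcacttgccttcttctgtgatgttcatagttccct

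Cd3d, Cd3e and Il7r each held 1 ETS match, whose first base lay at -199, -18 and -49 from the start in that order, all on the strand opposite to the gene. Cd3g held no ETS match and 1 GATA match at -103. Among 32851 RefSeq windows of 250 bases, 19.7% held the ETS motif and 22.6% the GATA motif. The RUNX motif TGTGGT, held by 14% of windows, and the E-box CAGCTG, held by 13%, were not among the letters of any matched window of these genes. Both strands were searched for each motif, and a match describes letters and not a bound site.

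Depth ranged from 10989829 to 12810452 reads among Control libraries, from 14512130 to 16857858 among CKD and from 14145854 to 17209924 among CKD TRF libraries. Values are log2 of scaled reads plus 1, where scaled reads are reads times a factor per library and sum to 941189 to 1180101, so that they are near CPM. A count of 0 allows up to 3 reads, which came to 0.168 to 0.306 scaled reads. These limits cover counting error only. The summed scaled reads of adipose markers reached 776 in CKD against 241 in Control, where Fabp4 (mean 164) made up most of the sum. Adipoq had means of 0.138, 24.9 and 11.5 scaled reads in Control, CKD and CKD TRF. On the log2 scale 5 diseased libraries (CKD 2, CKD 4, CKD TRF 1, CKD TRF 3 and CKD TRF 4) stood above 3 for Adipoq. Results on the T cell genes are therefore given without them below where a call changed. The CKD libraries kept, CKD 1 and CKD 3, had Adipoq at 1.526 and 1.032, above the highest Control value of 0.547.

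In CKD kidneys the T cell genes were higher than in Control: 7 of the 8 passed the test and none was lower. Il7r rose by 2.81 ± 0.20 (log2, SE from limma, n = 4 per group), Cd4 by 1.83 ± 0.22, Ptprc by 1.60 ± 0.19, Cd3d by 1.26 ± 0.25, Cd2 by 1.08 ± 0.28, Cd8a by 1.06 ± 0.33 and Cd3e by 0.81 ± 0.25. Cd3g, with a difference of 0.46 ± 0.25, did not pass. Over all 13943 tested genes 45.4% were called at an adjusted p under 0.05, 23.6% higher and 21.8% lower. The median difference of the 8 genes was 1.17 and that of all tested genes 0.02. All 8 passed the filter on low values, but on the Control mean alone 3 of them (Cd3d, Cd2 and Ptprc) would have done so. With no filter, 17.7% of 18750 genes were called higher. In whole kidney RNA, more T cells and more of these transcripts per cell cannot be told apart.

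**Figure D1:**
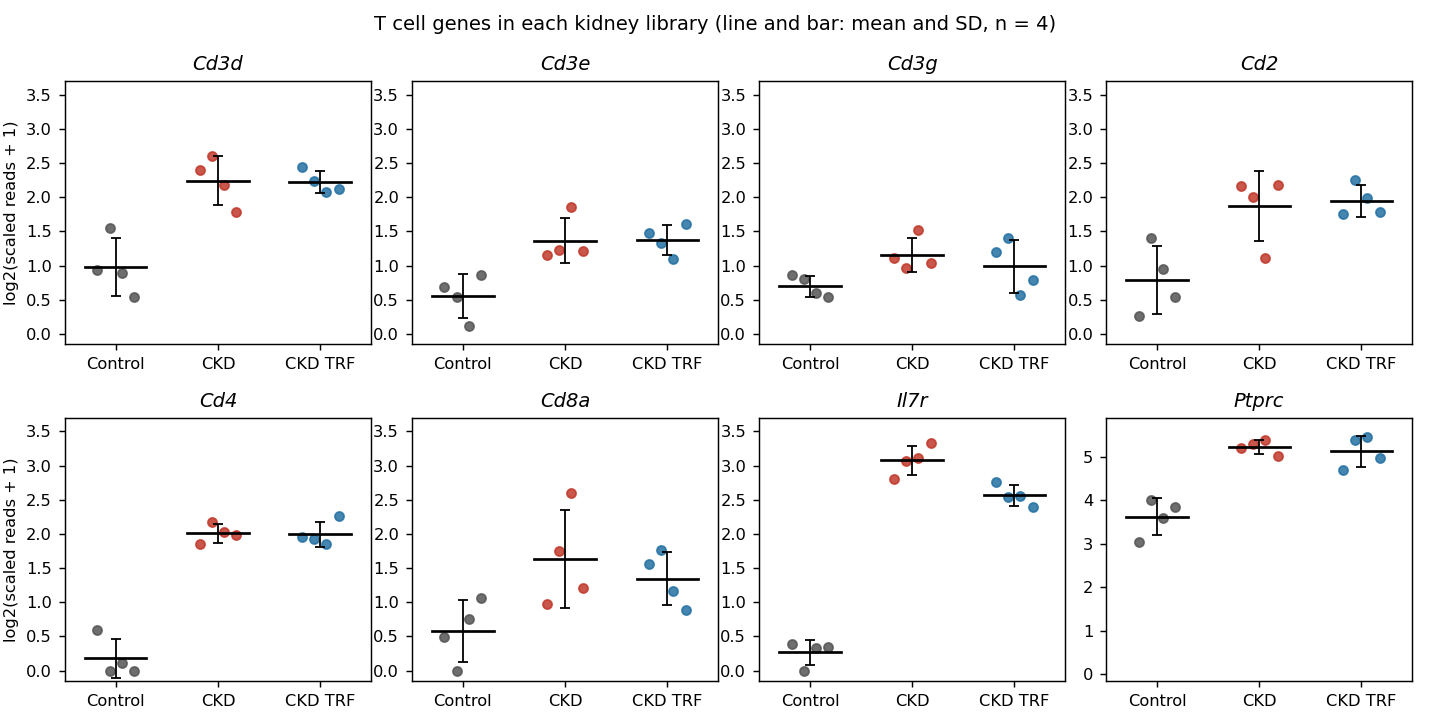
Deposited log2(scaled reads + 1) of each T cell gene in the 12 libraries, by group, with the mean as a line and the SD as a bar (n = 4); Ptprc has its own vertical scale. Control points lie lowest for every gene by their mean, CKD and CKD TRF points share most of their range, and Il7r is the gene in which all CKD TRF points lie below all CKD points.

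Cd3d codes for the delta chain of CD3. Its log2 values were 0.940, 1.553, 0.888 and 0.543 in Control, 2.401, 2.609, 2.183 and 1.777 in CKD, and 2.444, 2.236, 2.077 and 2.121 in CKD TRF. Every diseased library was above every Control library. Groups stood apart in that direction for 20.3% of all tested genes in CKD against Control and for 16.3% in CKD TRF against Control. In CKD against Control the adjusted p of limma was 3.3e-04, and in CKD TRF against Control the gene was 1.24 ± 0.25 higher with an adjusted p of 5.4e-04 from limma. Pooled over each group, Control held 45 reads, CKD 255 and CKD TRF 223.

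Cd3e codes for the epsilon chain, which pairs with both the delta and the gamma chain. Its values were 0.689, 0.547, 0.118 and 0.866 in Control, 1.158, 1.229, 1.853 and 1.209 in CKD, and 1.481, 1.336, 1.093 and 1.603 in CKD TRF. The groups with disease did not overlap Control, although the gap was narrow. The limma adjusted p was 0.0127 in CKD against Control. CKD 3 was the highest CKD library, and without it the difference was 0.64 ± 0.26 with a limma adjusted p of 0.0543. In CKD TRF against Control Cd3e was 0.82 ± 0.25 higher (limma adjusted p = 0.0139), and without Control 3 the difference was 0.68 ± 0.26 (limma adjusted p = 0.0507).

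Cd3g codes for the gamma chain. Its values were 0.861, 0.797, 0.595 and 0.543 in Control, 1.116, 0.965, 1.515 and 1.035 in CKD, and 1.195, 1.410, 0.563 and 0.785 in CKD TRF. The CKD libraries were all above Control by a small margin. The CKD TRF libraries lay across the range of both. The 95% interval of the difference in CKD against Control ran from -0.06 to 0.98 (limma adjusted p = 0.144), and CKD TRF against Control gave 0.29 ± 0.25 (limma adjusted p = 0.389). With 27, 83 and 62 pooled reads in Control, CKD and CKD TRF, Cd3g had the fewest reads of the 8 genes in both diseased groups.

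Cd2 codes for an adhesion receptor of T and NK cells. Its values were 0.268, 1.410, 0.953 and 0.543 in Control, 2.171, 2.009, 1.112 and 2.183 in CKD, and 1.750, 2.256, 1.993 and 1.779 in CKD TRF. CKD 3, with 20 reads against 54 in each other CKD library, lay inside the Control range, and the other diseased libraries lay above it. The limma adjusted p was 0.00434 in CKD against Control and 0.00332 in CKD TRF against Control, where the difference was 1.15 ± 0.28. Without the 5 libraries above 3 for Adipoq, the differences were 0.85 ± 0.38 (limma adjusted p = 0.11) and 1.46 ± 0.49 (limma adjusted p = 0.0727) in that order.

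Cd4, the co-receptor of helper T cells, was close to absent in Control. Its values were 0.595, 0, 0.118 and 0 in Control, 1.846, 2.180, 2.027 and 1.982 in CKD, and 1.951, 1.920, 1.857 and 2.266 in CKD TRF. The Control reads were 5, 0, 1 and 0, against 40 to 63 in a CKD library and 40 to 58 in a CKD TRF library. Every diseased library was far above every Control library. Pooled over the group, Cd4 came to 0.124 RPM in Control (95% Poisson interval 0.0454 to 0.269), 3.2 in CKD (2.77 to 3.67) and 2.98 in CKD TRF (2.57 to 3.44). Such intervals cover counting error only and leave out the spread between libraries. The limma adjusted p was 2.1e-06 in CKD against Control, and CKD TRF against Control gave 1.82 ± 0.22 with 3.6e-06.

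Cd8a, the alpha chain of the co-receptor of cytotoxic T cells, varied the most within CKD. Its values were 0.494, 0, 0.749 and 1.068 in Control, 0.980, 1.746, 2.597 and 1.209 in CKD, and 1.553, 1.760, 1.171 and 0.891 in CKD TRF. CKD 3 held 87 of the 164 CKD reads, and 1 CKD and 1 CKD TRF library lay inside the Control range. Cd8a passed in CKD against Control (limma adjusted p = 0.0127), but without CKD 3 the difference was 0.73 ± 0.31 and the limma adjusted p 0.0644. CKD TRF against Control gave 0.77 ± 0.33 and did not pass (limma adjusted p = 0.0723), while it passed without CKD 3 at 0.77 ± 0.29 (limma adjusted p = 0.0428). Cd8b1, the beta chain, was 1.19 ± 0.28 higher in CKD than in Control (limma adjusted p = 0.00164) with groups that did not overlap.

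Il7r, the alpha chain of the interleukin 7 receptor, moved the most of the 8 genes. Its values were 0.386, 0, 0.328 and 0.349 in Control, 2.800, 3.060, 3.115 and 3.329 in CKD, and 2.766, 2.545, 2.558 and 2.398 in CKD TRF. Reads numbered 3, 0, 3 and 3 in Control, 92 to 138 with CKD and 65 to 82 with CKD TRF. The 3 groups stood apart, in the order Control, CKD TRF, CKD. Pooled levels were 0.186 RPM (95% Poisson interval 0.0848 to 0.352) in Control, 7.85 (7.17 to 8.57) for CKD and 4.88 (4.34 to 5.46) for CKD TRF. These intervals treat reads as the unit and leave out the spread between libraries, so they do not compare the groups. Among the 13943 tested genes Il7r had the place 31 from the top by difference in CKD against Control (limma adjusted p = 2.6e-09) and 56 in CKD TRF against Control, where it was 2.30 ± 0.20 higher (limma adjusted p = 6.1e-08).

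Ptprc had the most reads of the 8 genes, 513 in Control kidneys, 2424 in CKD and 2156 in CKD TRF. Its values were 3.044, 4.018, 3.591 and 3.851 in Control, 5.214, 5.295, 5.387 and 5.021 in CKD, and 4.708, 5.391, 5.463 and 4.977 in CKD TRF. Diseased libraries were all above Control, and the spread in CKD TRF was wider than in CKD. The level went from 11.7 ± 3.44 scaled reads in Control (SD, n = 4) to 36.7 ± 3.97 in CKD and 34.9 ± 8.54 in CKD TRF. The limma adjusted p was 1.6e-06 in CKD against Control, and CKD TRF against Control gave 1.51 ± 0.19 with 5.1e-06.

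**Figure D2:**
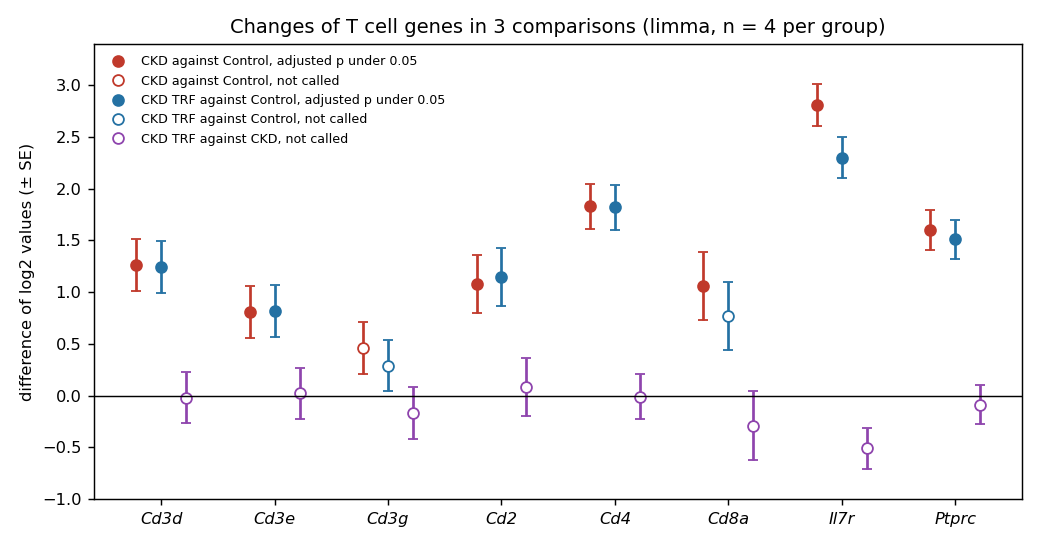
Difference of log2 values of each T cell gene in the 3 comparisons, with the SE from limma as the bar (n = 4 per group); filled points passed an adjusted p of 0.05 and open points did not. Il7r stands highest at 2.81 and 2.30 against Control, Cd3g is open in all 3 comparisons, and all points of CKD TRF against CKD are open.

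In CKD TRF against Control, which shares its Control libraries with the comparison above, 6 of the 8 genes were called higher (Cd3d, Cd3e, Cd2, Cd4, Il7r and Ptprc) and none lower. Over all tested genes 37.5% were called, 19.5% higher and 17.9% lower. The median difference of the 8 was 1.19, and that of all tested genes 0.01. Without the 5 libraries above 3 for Adipoq, which left 1 CKD TRF library that is assumed to vary like the other groups, 3 of the 8 passed. Cd3d was then 1.26 ± 0.41 (limma adjusted p = 0.0676) and Cd3e 0.78 ± 0.43 (limma adjusted p = 0.268). The part of the adipose markers in these results was not tested further.

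Time restricted feeding was compared with disease alone in CKD TRF against CKD, and none of the 8 genes passed. For Il7r the difference was -0.51 ± 0.20 with a 95% interval of -0.93 to -0.08, and all 4 CKD TRF libraries were below all 4 CKD libraries. Its unadjusted p was 0.0214 and its adjusted p 0.727 by limma. Of all 13943 genes, 0% were called by limma, 890 (6.38%) had an unadjusted p under 0.05, the smallest adjusted p was 0.705, and limma voom on the recovered reads also called 0. Groups stood apart with CKD TRF lower for 2.13% of tested genes.

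For the other 7 genes the intervals of CKD TRF against CKD contained 0. The interval of Cd4 ran from -0.48 to 0.46, that of Cd3d from -0.53 to 0.49 and that of Cd3e from -0.51 to 0.54. Cd3g lay between -0.69 and 0.35, Cd2 between -0.52 and 0.67, and Ptprc between -0.49 and 0.30. Cd8a had the widest interval, -0.97 to 0.39. With 4 libraries per group these intervals include differences in either direction.

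The genes were next set against Ptprc in the same library, which relates each T cell transcript to a transcript of all leukocytes. Ratios are of scaled reads and are compared between groups, not between genes. Cd4 stood at 1.95 ± 3.41% of Ptprc in Control (SD, n = 4), 8.33 ± 1.13% in CKD and 9.19 ± 3.22% in CKD TRF. Il7r stood at 2.15 ± 1.73%, 20.8 ± 5.43% and 15.1 ± 5.47% in that order. Every CKD library was above every Control library for both. For Cd4 the margin was narrow, 7.19% in CKD 1 against 7.04% in Control 1, which held 5 Cd4 reads. For Il7r the nearest values were 16.5% in CKD 1 and 4.23% in Control 1.

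The other ratios overlapped between groups. Cd3d stood at 9.12 ± 4.48% of Ptprc in Control kidneys, 10.4 ± 2.64% in CKD and 11.3 ± 4.49% in CKD TRF. Cd3e stood at 4.59 ± 3.38%, 4.37 ± 1.39% and 5.04 ± 2.21%, and Cd2 at 6.4 ± 3.93%, 7.93 ± 3.65% and 8.38 ± 1.16%. Cd8a stood at 4.99 ± 3.5%, 6.34 ± 4.26% and 4.81 ± 2.38%, and Cd3g at 6.03 ± 3.54% in Control kidneys, 3.4 ± 0.853% in CKD and 3.16 ± 1.78% in CKD TRF.

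Exact two-sided permutation tests of these ratios, 21 in all, gave no adjusted p under 0.05. For Cd4 and Il7r in CKD against Control the exact p was 0.0286, the smallest that 4 against 4 allows, and 0.2 after adjustment over the 21. Il7r in CKD TRF against Control gave the same exact values. No adjusted p could fall under 0.05 unless most of the 21 tests stood at that smallest exact p. These tests therefore cannot decide whether single ratios such as those of Cd4 and Il7r differed. Cd4 in CKD TRF against Control gave an exact p of 0.0857 (adjusted 0.36) and Cd3g in CKD against Control 0.0571 (adjusted 0.3). Il7r in CKD TRF against CKD differed by -5.75 percentage points, with an exact p of 0.171 (adjusted 0.6) and groups that overlapped.

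**Figure D3:**
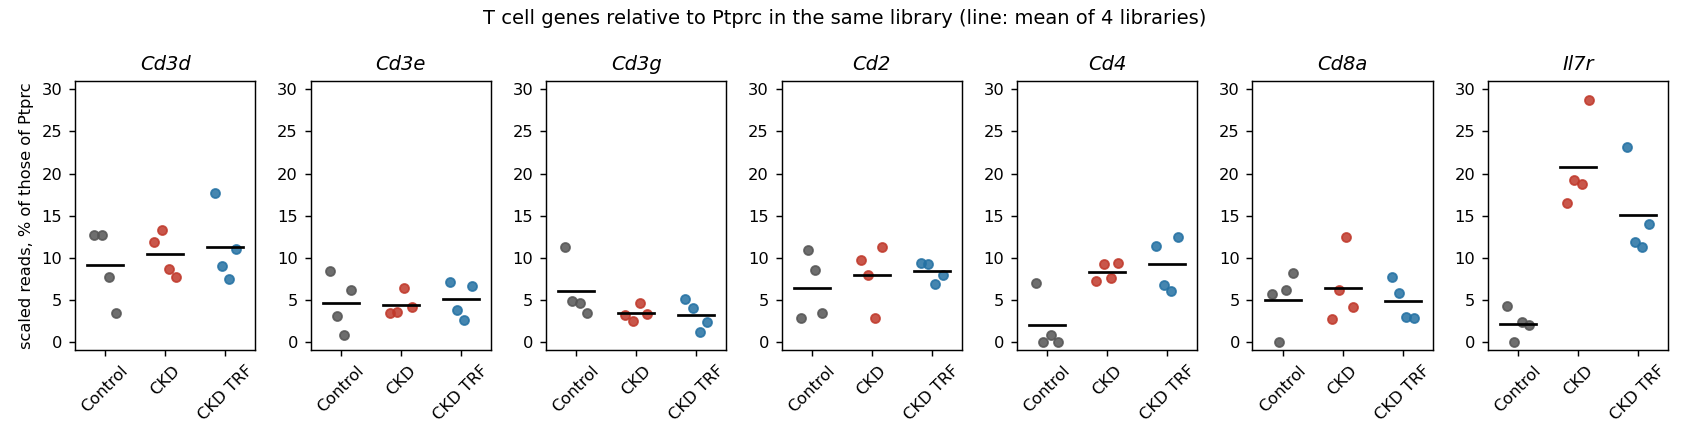
Scaled reads of each T cell gene as a percentage of those of Ptprc in the same library, by group, with the mean as a line (n = 4). Il7r and Cd4 lie higher in all CKD libraries than in all Control libraries, Cd4 by a narrow margin, while the other 5 genes overlap between groups.

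A ratio to the summed scaled reads of Cd3d, Cd3e and Cd3g, chosen after the values were seen and given with no test, showed the same 2 genes apart. The summed level was 1.45 to 3.13 in Control, 4.79 to 8.01 with CKD and 4.83 to 7.52 with CKD TRF. Cd4 came to 6.91% of it in Control (range 0 to 21.8), 46.6% in CKD (38.4 to 61.6) and 48.8% in CKD TRF (38.1 to 62.3). Il7r came to 11.6% (0 to 17.6), 118% (89.3 to 189) and 79.6% (69.9 to 101). For Cd8a the means were 31.9%, 34.2% and 25.1%, and for Cd2 38.2%, 45.4% and 46.9%.

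Across the 12 libraries the 28 pairs of these genes had a median Pearson r of 0.72 on the log2 values, from 0.27 to 0.96. With the group means taken out the median was 0.02, from -0.71 to 0.48, and 14 of the 28 were above 0. The points share their libraries, depth and group, so r is a description. The tested genes most like the log2 of the summed CD3 level over 12 libraries were Fcgr3 (r = 0.983), a receptor for antibody constant regions on myeloid and NK cells, Fam76b (0.982), Tnfrsf18 (0.974), the co-stimulatory receptor GITR, Usp11 (0.971) and Tmsb10 (0.970). With group means taken out over the same 12 libraries they were Lilr4b (0.933), Extl1 (0.908), Glrx2 (0.907), Fam76b (0.893) and Amz2 (0.890).

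As deposited, most tested genes of the signalling next to the T cell receptor were higher in CKD as well. Of 23 listed, 15 were tested. In CKD against Control 10 were higher (7 with quantile normalization) and none lower. Their median was 1.02 beside 0.02 over all tested genes. Fyb, an adaptor that links the receptor to integrins, was 1.98 ± 0.20 higher (limma adjusted p = 1.9e-07). Lat and Lcp2, the scaffolds on which the receptor signal is assembled, were 1.51 ± 0.28 and 1.46 ± 0.25 higher, and Lck, the kinase that starts it, 1.41 ± 0.27. Cd28, the main co-stimulatory receptor of naive cells, was 1.18 ± 0.23 higher. Lat, Cd28, Cd5, Grap2, Cd8b1, Lck and Skap1 passed the filter through the diseased libraries. Their Control means were 0.255, 0.298, 0.184, 0.583, 0.438, 0.687 and 0.676 scaled reads in that order. Cd247, the zeta chain, gave 0.23 ± 0.23 and did not pass (limma adjusted p = 0.431). The kinase Zap70 was too low to be tested, with 2, 67 and 36 pooled reads in Control, CKD and CKD TRF. The receptor's own constant region genes were not analysed here.

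On the MHC side, 6 of 7 listed class II genes were higher in CKD and none lower, with a median of 1.03. Cd74, the invariant chain, was 2.07 ± 0.14 higher, and H2-Eb1 and H2-Ab1, chains of the class II molecules that CD4 binds, 1.69 ± 0.15 and 1.39 ± 0.12. Of 8 tested class I genes, which serve recognition by CD8 cells, 6 were higher and 1 lower. Tap1, a peptide transporter, was 1.18 ± 0.18 higher and H2-K1 1.15 ± 0.12, while H2-T23, a class Ib gene, was -1.29 ± 0.29. H2 genes resemble each other closely, so that the counting may have divided reads between them.

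Among cytokines and receptors that use the common gamma chain, to which the interleukin 7 receptor belongs, 6 of 12 tested genes were higher in CKD and none lower, with a median of 0.44. Jak3, the kinase bound to that chain, was 1.36 ± 0.22 higher, and Il2rb and Il2rg 1.29 ± 0.29 and 1.22 ± 0.22. The ligand Il7 gave 0.50 ± 0.26 (limma adjusted p = 0.12), and Il15, a related cytokine, -0.09 ± 0.19 (limma adjusted p = 0.724).

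Of 16 tested genes of T cell subsets and effector function, 11 were higher in CKD and none lower, with a median of 0.88. Bcl6, a repressor used by follicular helper T cells and found in many other cells, was 2.13 ± 0.40 higher, Cxcr6, a receptor of tissue-resident T cells, 1.87 ± 0.27, and Ccl5, a chemokine of effector cells, 1.48 ± 0.21. Of 3 factors that name helper subsets, Gata3, also a factor of the collecting duct, was 1.30 ± 0.15 higher, while Tbx21 gave 0.45 ± 0.25 (limma adjusted p = 0.159) and Foxp3 0.18 ± 0.15 (limma adjusted p = 0.367). Foxp3 overlaps 4 other genes, including the coding genes Ppp1r3f and Ccdc22 on the other strand, so its reads may not be its own. Among effector genes, Gzmk and Il17a had 0 reads in all 12 libraries, which allows up to 3 reads in each, and Prf1 had 1 read in all. Gzma, Gzmb and Ifng were too low to be tested. Gzma had 15, 55 and 34 pooled reads in Control, CKD and CKD TRF, Gzmb 4, 8 and 0, and Ifng 15, 7 and 10. Nkg7 was 0.92 ± 0.33 higher in CKD than in Control (limma adjusted p = 0.0278), with groups that overlapped.

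All 6 tested co-stimulation and checkpoint genes of 16 listed were higher in CKD, with a median of 0.91, and 1 of the 6 with quantile normalization. All but Tox passed the filter through the diseased libraries, so this count was in part set by the filter. Control means were 0.161 (Tnfrsf18), 0.455 (Tnfrsf4), 0.55 (Cd226), 0.579 (Btla) and 0.617 (Icos) scaled reads, against 1.53 for Tox. Tnfrsf18 was 1.53 ± 0.25 higher, and Tox, a factor of persistently stimulated T cells, 0.98 ± 0.31. Of 22 tested homing genes 18 were higher and none lower, with a median of 1.18. Vcam1, the endothelial and tubular adhesion molecule that holds lymphocytes, was 2.40 ± 0.18 higher, and its partner Itga4 1.64 ± 0.26. Itgal, which binds ICAM1, was 1.68 ± 0.22 higher, and Ccl19 and Ccl21a, ligands of the lymph node receptor CCR7, 1.58 ± 0.19 and 1.22 ± 0.21. Ccr7 itself gave 0.60 ± 0.26 (limma adjusted p = 0.0641).

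Partners of CD2 and CD45 were higher as well, 15 of 16 tested, with a median of 1.05. Laptm5, Rac2 and Lgals3 led with 1.68 ± 0.14, 1.66 ± 0.21 and 1.62 ± 0.11, and all are also expressed outside T cells. Cd48, the ligand of CD2 in mice, was 0.66 ± 0.22 higher. Cd2bp2, a widely expressed splicing protein that can bind the CD2 tail, was the 1 lower gene at -0.44 ± 0.13 (limma adjusted p = 0.0106), and it was not called with equal sums per library or with voom.

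In CKD TRF against Control the same lists gave 10 of 15 receptor signalling genes higher, 6 of 7 for class II, 5 of 8 for class I with 1 lower, 6 of 12 for the common gamma chain, 10 of 16 for subsets and effectors, 17 of 22 for homing and 12 of 16 for partners of CD2 and CD45, with none lower in the other lists. With quantile normalization the counts for receptor signalling and for subsets and effectors fell to 5 of 15 and 5 of 16. Co-stimulation and checkpoint genes gave 1 of 6 higher, Tnfrsf18 at 1.58 ± 0.25. Tbx21, the factor of type 1 helper cells, was 0.98 ± 0.25 higher here (limma adjusted p = 0.00468). It passed the filter through the diseased libraries, with a Control mean of 0.283 scaled reads. No gene of any list was called in CKD TRF against CKD. The comparisons share their groups, and which genes differed between CKD and CKD TRF was tested only in the last of them.

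Markers of macrophages and dendritic cells moved with the T cell genes in CKD against Control. Of 13 macrophage and monocyte markers 11 were higher and none lower, and their summed scaled reads were 184 to 233 in Control kidneys, 509 to 685 with CKD and 488 to 598 with CKD TRF. Adgre1 led with 2.58 ± 0.23. Of 10 dendritic cell markers 8 were higher (3 with quantile normalization), led by Clec10a at 2.27 ± 0.32, and their sums were 9.78 to 15.9, 32.8 to 48.2 and 30.1 to 40.3 in that order. As a share of the macrophage sum, Cd3d stood at 0.501 ± 0.253% in Control kidneys, 0.629 ± 0.122% in CKD and 0.694 ± 0.144% in CKD TRF, and Il7r at 0.108 ± 0.0741%, 1.28 ± 0.355% and 0.934 ± 0.177%.

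Markers of other lymphoid cells could be tested in part. For B and plasma cells 5 of 13 listed genes could be tested and 4 were higher (2 with median centring or quantile normalization). Their sums were 30.5 to 77.7 in Control, 86.8 to 120 with CKD and 46.6 to 108 with CKD TRF, with Pax5 at 0 in all libraries. For NK cells 2 of 3 tested genes were higher, Klrd1 by 1.28 ± 0.31 and Klrk1 by 0.64 ± 0.25 (1 of the 3 with median centring or quantile normalization). Both passed the filter through the diseased libraries, with Control means of 0.424 and 0.471 scaled reads. The NK sums were 1.37 to 2.35, 3.7 to 8.42 and 2.69 to 5.87, and the defining marker Ncr1 had 0, 5 and 0 pooled reads. Innate lymphoid markers, of which 2 of 4 tested were higher (4 with quantile normalization), summed to 1114 to 1256, 999 to 1280 and 1035 to 1283, mostly from Id2 and Rora, which kidney cells express too, while Il5 and Il13 had 0 reads in every group. Of 3 tested neutrophil markers 1 was higher in CKD and none lower, with a median of -0.60. S100a8 gave -0.60 ± 0.41 and S100a9 -0.61 ± 0.43, and neither was called. The neutrophil sums were 5.95 to 36.5, 7.54 to 14.9 and 11.5 to 16.3. Of 7 blood markers 6 were lower in CKD than in Control and 1 higher, with sums of 4894 to 13526 in Control, 2053 to 3373 with CKD and 2861 to 4417 with CKD TRF. Of 6 tested urothelium markers all were higher in CKD and in CKD TRF than in Control, with medians of 1.92 and 2.02 and sums of 3.68 to 14.7 in Control, 28.9 to 141 with CKD and 32.8 to 121 with CKD TRF. Of 6 lymphatic endothelium markers 5 were higher in CKD (1 with quantile normalization) and 2 in CKD TRF, led by Pdpn at 1.59 ± 0.12 in CKD. Lyve1 gave 0.39 ± 0.36 in CKD against Control and was not called (limma adjusted p = 0.399). The lymphatic sums were 16.1 to 27.9, 49.2 to 58 and 47.7 to 54.2 in Control, CKD and CKD TRF. Pdpn alone had means of 10.1, 32.5 and 31.8 scaled reads, beside mean sums of 21.7, 54.1 and 51.1 in that order. The part of all these cells in the T cell gene results was not tested.

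**Figure D4:**
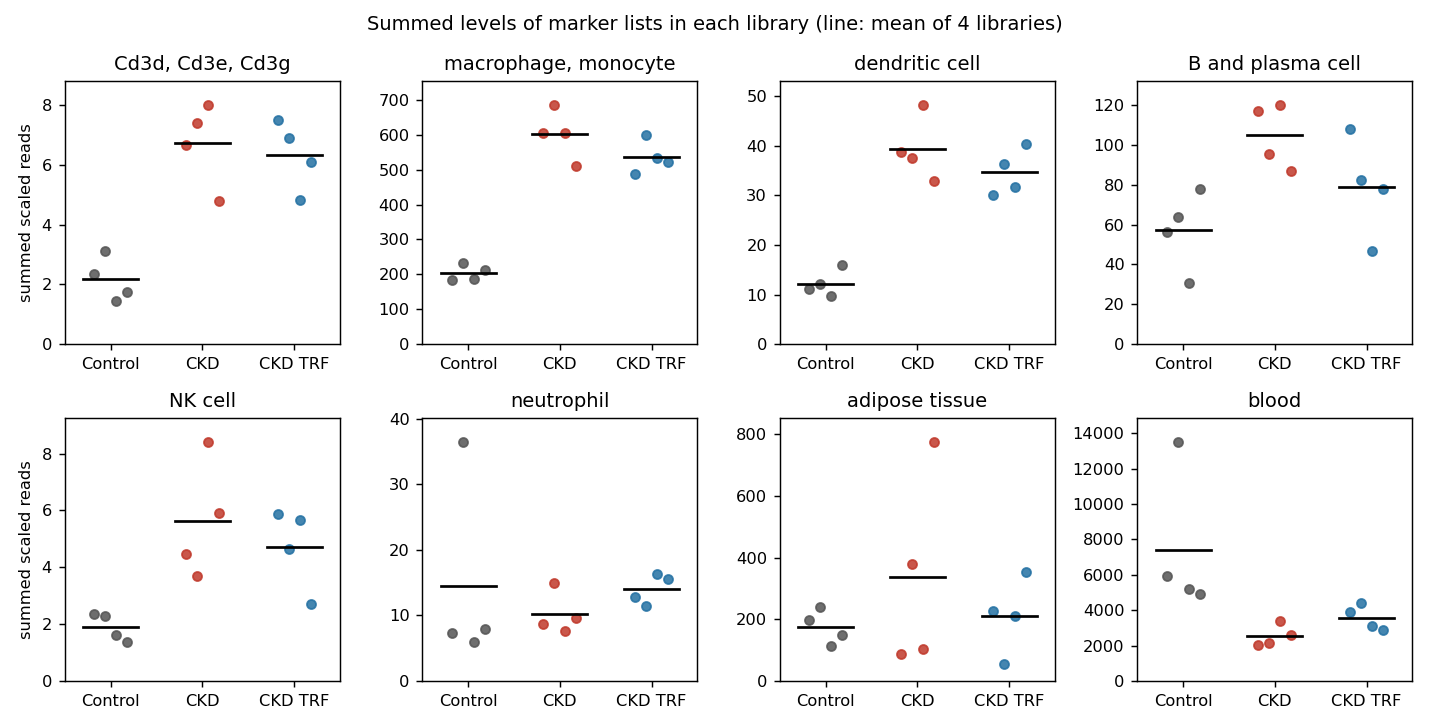
Summed scaled reads of the 3 CD3 genes and of 7 marker lists in each of the 12 libraries, by group, with the mean as a line (n = 4); each panel has its own vertical scale from 0. CD3, macrophage and dendritic cell sums are higher in all diseased libraries than in Control, blood sums are lower, and adipose sums reach 776 in a single CKD library.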

How the data were processed

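Libraries were made from 500 ng of Trizol-extracted RNA with Lexogen QuantSeq reagents, per the labels' protocols. Per the submitters' processing notes, the tools were Bowtie2 and bedtools and the build mm10, with no versions given. The deposited values are log2 of scaled reads plus 1, which was read from the values: 98.3% to 100% of values below 20 scaled reads were whole read numbers to within 0.1. The scaling method is not given in the sources used here.

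Of 23282 entries, 35 symbols had more than 1, and the highest by mean was used. The test covered the 13943 genes whose mean log2 value over the 12 libraries was in the top 60%, at least 0.729. Genes low in Control could pass through the diseased libraries alone, so counts of higher calls in the lists are in part set by the filter. The 3 groups entered 1 model in limma 3.58.1 (R 4.3.3) with a two-sided moderated test and Benjamini-Hochberg adjustment over all tested genes, threshold 0.05. The added 1 understates changes of low genes. The fit was tested on simulated data. Ratios were tested with SciPy 1.17.1. Recovered reads entered limma voom as an alternative. The alternatives varied filter, scaling, pseudocount (0.25), weights, groups in the fit, the replicate block and libraries left out.

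In each list, the 3 genes called in CKD against Control with groups apart and the largest differences were named, with the first markers of other cell types; other list genes were named for their role after their values were seen. The members and lists were chosen with earlier results of these data known. Libraries of a group differed by more than counting noise (chi-square per degree of freedom at least 8.91).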

Additional observations from a re-analysis of the deposited data

Results flagged for a closer look

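Among the 8 T cell genes in 3 groups of 4 libraries, 3 of the 24 sets of values held a library far from the others of its group. Chance gives about 1 in 20 for independent sets of normal values. Sets that share a library, or hold as few reads as Il7r in Control, are not of that kind, so that rate is no measure here. For Cd3e, CKD 3 was the highest of its group at a log2 value of 1.853. For Cd2, the same library was the lowest of its group at 1.112. For Il7r, Control 2 was the lowest of its group at 0.000, with 0 reads against 3 in each other Control library.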

How the results depend on the processing

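Of 528 values of single T cell genes under the alternatives, 488 kept their direction and their side of the threshold, 10 lost the call, 3 gained it and 27 changed sign. None of the 27 was called as deposited or under the alternative: 26 were in CKD TRF against CKD and 1, Cd3g with quantile normalization (-0.09), in CKD TRF against Control. In CKD TRF against CKD, Cd4 became 0.02 with median centring and 0.05 with quantile normalization, and Cd3d 0.00 and 0.01. Cd3e became -0.03 with equal sums, -0.08 with voom and -0.17 without the 5 libraries above 3 for Adipoq, where Cd3g and Ptprc each became 0.09. With each library left out in turn, the differences in that comparison ranged from -0.10 to 0.05 for Cd4, -0.51 to 0.03 for Cd8a, -0.18 to 0.10 for Cd3d, -0.06 to 0.18 for Cd3e, -0.18 to 0.18 for Cd2, and -0.20 to 0.05 for Ptprc. The cause was not tested. Differences of log2 values from Ptprc, in place of ratios, changed the sign of Cd8a (-0.548), Cd3d (-0.342) and Cd2 (-0.528) in CKD against Control and of Cd3d (-0.27), Cd3e (-0.686) and Cd2 (-0.358) in CKD TRF against Control. Ratios to the macrophage sum did so for Cd3e in CKD against Control (0.0314 percentage points) and Cd8a in CKD TRF against Control (0.0224). None of these passed the test, but a few ratios at its smallest exact p could not have passed either. The number of the 8 genes called was 5 to 7 in CKD against Control, 0 in CKD TRF against CKD and 5 to 7 in CKD TRF against Control when each library was left out in turn, and 5, 0 and 5 with quantile normalization. That setting took Cd8a (0.64, limma adjusted p = 0.126) and Cd3e (0.40, 0.212) in CKD against Control, and Cd3e (0.45, 0.173) in CKD TRF against Control, below the threshold. A pseudocount of 0.25 brought Cd8a in CKD TRF against Control to 1.38 ± 0.53 (limma adjusted p = 0.0459), and leaving out Control 4 to 0.93 (0.0455). Fits on recovered reads with limma voom gave larger differences for low genes, 5.02 ± 0.67 for Cd4 and 5.46 ± 0.64 for Il7r in CKD against Control, and -0.68 ± 0.22 (adjusted p = 0.406) for Il7r in CKD TRF against CKD.

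Over all genes, leaving out 1 library gave 5388 to 6311 calls in CKD against Control, 0 to 1 in CKD TRF against CKD and 4396 to 5150 in CKD TRF against Control. The 1 call was Plekhh2, without CKD TRF 1; with no filter on low values 1 gene, Adam7, was called, lower. Without the 5 libraries above 3 for Adipoq, a limit chosen after seeing the data, 4037 and 1478 genes were called against Control in CKD and CKD TRF, and 3 of the 8 T cell genes in CKD TRF; fewer libraries entered that fit. The limit of 1 planned at first took all CKD libraries and could not be fitted. Median centring shifted differences by -0.104 in CKD against Control and -0.079 in CKD TRF against Control. The median difference of all tested genes went from 0.022 to 0.227 with equal sums and 0.252 with voom in CKD against Control, and from 0.014 to 0.144 and 0.160 in CKD TRF against Control. The split of higher against lower calls in CKD against Control was 3297 to 3036 as deposited, 2650 to 3918 with median centring, 4989 to 1547 with equal sums and 4747 to 1517 with voom. In CKD TRF against Control it was 2724 to 2501, 2296 to 3227, 3656 to 1431 and 3423 to 1380.

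Same-numbered libraries did not deviate together (r = -0.18 to 0.11 over 12 pairs, 5 of 24 best with their own number). With the replicate block 6131, 0 and 5033 genes were called and 7, 0 and 6 of the T cell genes, and no T cell gene changed its call. Ratios to Ptprc with a library left out are values with no test. Cd4 in Control rests on 6 reads and Il7r on 9, so their fold changes are imprecise.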
